A study of Mus musculus with 6 samples.

Results

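The genes described here serve glycolysis and the response to low oxygen, and they were followed in mouse skin and in skin tumours raised by DMBA, a carcinogenic polycyclic aromatic hydrocarbon. The list holds 33 genes chosen by function, each represented by its brightest probe. Of these, 27 were detected on at least 1 array and tested, among 11998 tested genes in all. Bnip3, Pfkfb3 and Ero1a (listed under its older symbol Ero1l) had probes that were not detected on any array, and Hk2, Gpi1 and Eno1 had no probe named for them in the annotation used here. The tested genes comprise 3 transporters, 11 glycolytic enzymes, 2 regulators of glycolytic flux, 3 oxygen-sensing genes and 8 other hypoxia targets.

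Total RNA from 6 samples was hybridised to 6 Illumina BeadChip arrays. The groups were DMBA tumours of wild-type mice (WT, Sting +/+, 2 arrays), acetone-treated WT skin (1 array), DMBA-treated skin of mice without STING (SKO, Sting -/-, 2 arrays) and acetone-treated SKO skin (1 array). STING is an adaptor that relays the detection of cytosolic DNA to interferon and inflammatory responses. All mice were of a C57BL6/129Sv background and 8 weeks old, and 10 µg of DMBA was painted on shaved dorsal skin each week over 18 to 20 weeks, in acetone (100 µl). The controls received 100 µl of acetone, and the labels give no duration for them. After DMBA, WT was sampled as tumour and SKO as skin, so the effects of genotype and of tissue cannot be told apart there. No label says that replicates were separate mice, and the p-values cover no more than the spread among these samples, possibly technical.

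Glycolysis splits glucose into pyruvate, and lactate dehydrogenase turns pyruvate into lactate. When oxygen is plentiful, prolyl hydroxylases of the Egln family mark the transcription factor subunit HIF-1α for destruction. When oxygen is scarce the subunit persists and binds hypoxia response elements, and many genes of glucose uptake, glycolysis and lactate export are among its known targets. In skin, keratinocytes are known to use glycolysis strongly, and the muscle layer beneath the dermis carries its own isoforms of several of the same enzymes.

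Between 35.5% and 43.3% of 45281 probes were detected per array. Tumour 1 stood apart: its correlation with the other arrays across genes, which are not independent replicates, was 0.923 with tumour 2 and 0.766 to 0.819 with the 4 skin arrays, whereas the skin arrays correlated with each other at 0.941 to 0.981. Tumour 2 correlated with the skin arrays at 0.873 to 0.939, and its value of 0.939 with an SKO DMBA array was above that with tumour 1. All 11 tested keratinocyte markers were detected on every array. The Sting1 probe, whose place relative to the deleted part is not known and which therefore does not check the genotypes, had log2 intensities of 5.40 (not detected) and 6.79 in the tumours, 6.31 in WT acetone skin, 5.55 and 5.33 in SKO DMBA skin and 4.94 (not detected) in SKO acetone skin. In bulk samples, fewer cells of a type and less RNA per cell cannot be told apart.

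The tumours were set against the mean of the 3 skin groups to ask how these genes differ between tumour and skin of any kind. Of 27 genes, 10 rose and 0 fell (limma, Benjamini-Hochberg adjusted p under 0.05 over all genes), against 4.81% of all tested genes called higher and 6.13% called lower. Over all genes 577 of 1313 calls were higher, against 383 of 1409 without normalization between arrays and 444 of 1544 with equal medians, where the median of all genes moved to -0.331 and -0.233. The 10 were Slc2a1, Pfkl, Pgam1, Pkm, Pfkfb4, Hif1a, Egln3, Ndrg1, Ankrd37 and Adm, of which 5 belong to glycolysis and 5 to the hypoxia response. At an unadjusted p under 0.05, 17 were higher and 1 lower, against 16.2% and 20.7% of all genes. The median difference over the 27 genes was 0.94 on the log2 scale, and over all tested genes it was -0.018. In all, 24 of 27 differences were positive, against 49% of all genes. These 10 calls rest on the spread within the pairs of DMBA arrays. All were lost without either SKO DMBA array, as were the calls of every other gene. All were also lost without SKO acetone skin (limma adjusted p = 0.0522 to 0.0787), where 0.0667% of all genes were called higher. Without tumour 1 there were 10 calls, against 5.77% of all genes called higher in that fit, and without tumour 2 there were 17, against 16.4%.

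On all 4 skin arrays, 21 of the 27 genes were lower than in either tumour, against 26.2% of all tested genes, and 1, Aldoa, was higher, against 27.2%. Slc16a3, tested only through its detection in tumour 1, is among the 21 and among the genes with a positive tumour difference. It is also in the counts of tumours above WT acetone skin and above SKO DMBA skin given below. The count was 17 both without normalization between arrays and with equal array medians, against 13.7% and 16.7% of all genes. It was 20 with undetected signals raised to 1 limit, against 25%, and 20 of 25 over genes detected on all 6 arrays, against 30.6%. It was 21 with tumour 2 alone, against 31.7% of all genes, and 24 with tumour 1 alone, against 38.5%.

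**Figure D1:**
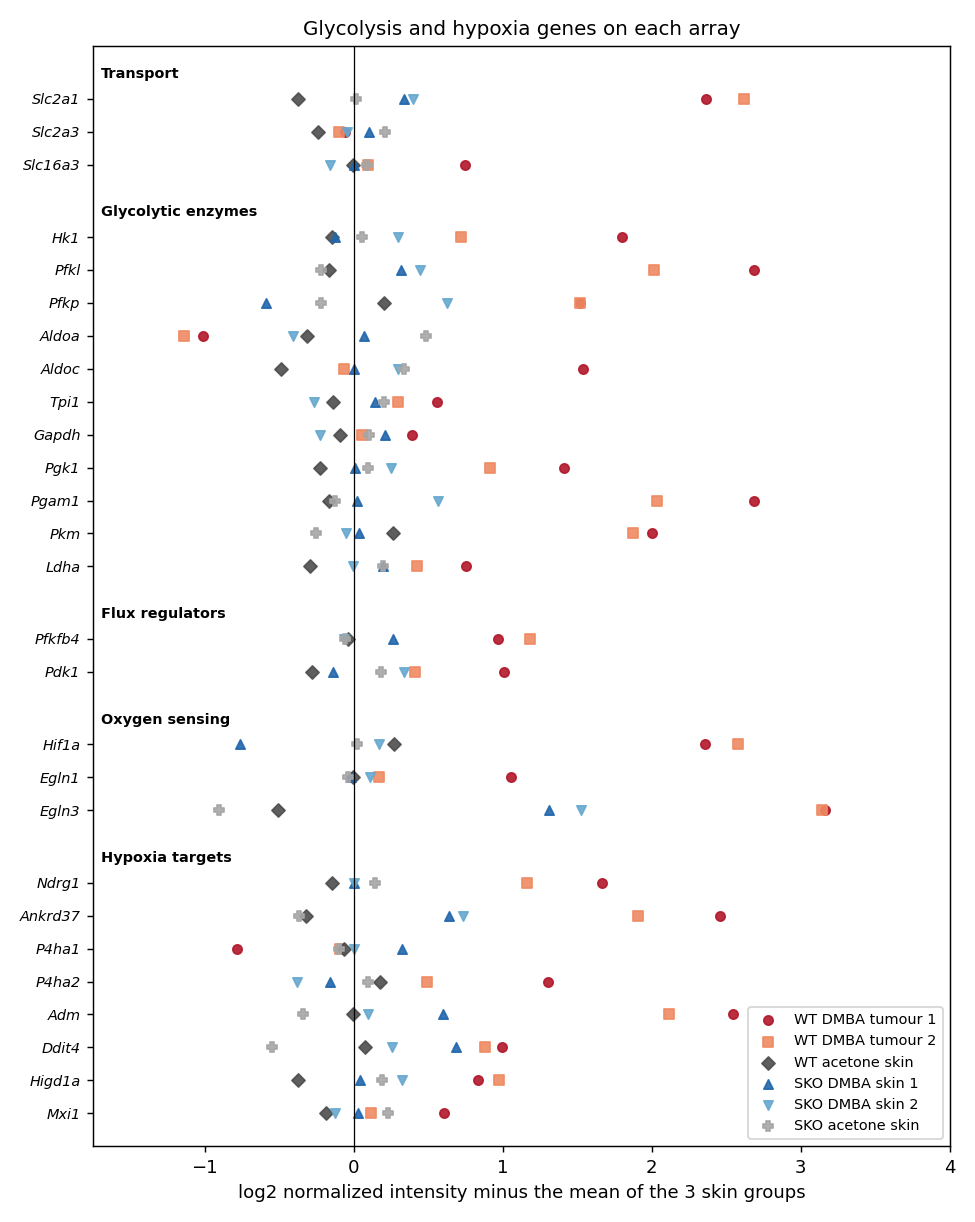
Log2 normalized intensity of each tested gene on each of the 6 arrays, minus the mean of the 3 skin groups (x axis), with genes grouped by role (y axis) and 1 symbol per array. Both tumours lie to the right of every skin array for 21 of the 27 genes and to the left for Aldoa.

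Egln3, Slc2a1, Hif1a and Pgam1 had the largest tumour differences of the list. Their promoters, from 250 bases before to 50 bases after the start site (RefSeq, GRCm38.p6), are printed. These genes were picked for the size of that difference, so their shared rise in the tumours follows from the choice. Hypoxia response elements have the core ACGTG or GCGTG. The windows are chr12:54203825-54204124 on the minus strand for Egln3, chr4:119108495-119108794 on the plus strand for Slc2a1, chr12:73907617-73907916 on the plus strand for Hif1a and chr19:41911621-41911920 on the plus strand for Pgam1. Each is written 5′ to 3′ along the gene, with every match to the core on either strand in capitals.
Egln3: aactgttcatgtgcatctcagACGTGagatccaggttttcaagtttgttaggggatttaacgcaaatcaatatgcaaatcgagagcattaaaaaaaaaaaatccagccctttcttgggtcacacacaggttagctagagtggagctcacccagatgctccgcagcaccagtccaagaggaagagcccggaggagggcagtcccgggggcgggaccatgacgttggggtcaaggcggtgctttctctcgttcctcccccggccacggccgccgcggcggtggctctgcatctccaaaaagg
Slc2a1: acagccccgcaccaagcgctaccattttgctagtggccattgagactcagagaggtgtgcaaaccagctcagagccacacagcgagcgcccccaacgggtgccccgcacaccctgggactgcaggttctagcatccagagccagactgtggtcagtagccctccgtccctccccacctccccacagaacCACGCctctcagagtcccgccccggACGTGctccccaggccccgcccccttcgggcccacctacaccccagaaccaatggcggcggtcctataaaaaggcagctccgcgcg
Hif1a: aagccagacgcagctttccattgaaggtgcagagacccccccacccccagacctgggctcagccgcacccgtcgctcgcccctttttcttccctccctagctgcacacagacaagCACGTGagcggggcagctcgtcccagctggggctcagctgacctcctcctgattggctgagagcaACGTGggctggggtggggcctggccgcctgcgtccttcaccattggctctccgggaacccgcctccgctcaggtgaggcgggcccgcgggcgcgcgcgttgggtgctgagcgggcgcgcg
Pgam1: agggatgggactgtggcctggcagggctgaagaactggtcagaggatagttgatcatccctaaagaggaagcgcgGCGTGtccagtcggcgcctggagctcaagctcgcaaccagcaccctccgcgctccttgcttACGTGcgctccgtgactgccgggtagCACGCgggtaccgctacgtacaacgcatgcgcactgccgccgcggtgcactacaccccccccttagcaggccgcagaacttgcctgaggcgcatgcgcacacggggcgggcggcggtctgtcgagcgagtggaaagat

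The Egln3 window holds 1 match, at -229 from the start site. The Slc2a1 window holds 2, at -61 and -36. The Hif1a window, around a start site that lies within the RefSeq span of the gene, holds 3, at -135, -134 and -70, of which the first pair overlap as 1 palindrome. The Pgam1 window holds 3, at -175, -114 and -88. Over the whole list, 24 of 25 tested genes with a promoter in the table had the core in at least 1 window. Over all promoters it was 12628 of 27025 genes. Aldoa and P4ha1, with negative tumour differences, had the core too. The list was chosen by function and holds known HIF targets, so its share is not independent of that choice. By window, 28 of 34 (82.4%) held it, against 43.8% of all 32851 promoter windows of the same length. The windows of the listed genes had a GC content of 63%, against 53.8% over all promoters, and promoters with the core had 58.8%, against 49.9% without it. A match describes letters and not binding, and the part of base composition in the share was not tested.

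Among the oxygen-sensing genes, Egln3, which encodes a prolyl hydroxylase that is itself a HIF target, had log2 intensities of 13.53 and 13.51 in the tumours, against 9.85 in WT acetone skin, 11.67 and 11.89 in SKO DMBA skin and 9.45 in SKO acetone skin. The tumours were highest, both acetone skins lowest and SKO DMBA skin between, without overlap. Egln3 rose by 3.15 in the tumours against the skin groups (SE 0.19, 8.90-fold, limma adjusted p = 0.0274), and its other detected probes differed by 1.88 and 2.27.

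Hif1a, the oxygen-regulated subunit of HIF-1, had log2 intensities of 9.09 and 9.32 in the tumours, against 7.01 in WT acetone skin, 5.98 and 6.91 in SKO DMBA skin and 6.76 in SKO acetone skin. Its transcript rose by 2.47 (SE 0.33, 5.54-fold, limma adjusted p = 0.0358), although the SKO DMBA arrays themselves lay 0.93 apart. Of its other probes, 1 was detected on 1 array and differed by 1.26, and 1 was detected on 0 arrays. The 5.54-fold size thus rests on 1 probe. Egln1, the main prolyl hydroxylase of normal oxygen, had 7.30 and 6.42 in the tumours and 6.21 to 6.35 on the skin arrays, and its difference of 0.61 (SE 0.32) was not called. Here tumour 2 lay close to the skin arrays. Of all tested genes, 4.81% were called higher and 6.13% lower. In a list of 10 other tested genes of oxygen sensing, including Epas1, Arnt, Vhl and Hif1an, 0 were called and the median difference was 0.045. The highest and lowest were Siah2, a ubiquitin ligase that acts on the hydroxylases, at 0.52 (SE 0.28) and Cited2, which competes with HIF for its coactivators, at -0.94 (SE 0.19, adjusted p = 0.0502).

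Among the transporters, Slc2a1 (GLUT1), the main glucose carrier of keratinocytes, had 13.16 and 13.41 in the tumours, against 10.41 in WT acetone skin, 11.13 and 11.19 in SKO DMBA skin and 10.80 in SKO acetone skin. It rose by 2.49 (SE 0.19, 5.63-fold, limma adjusted p = 0.0274), and the groups did not overlap. The related carrier Slc2a3 (GLUT3) had 6.79 and 6.75 in the tumours and 6.61 to 7.06 on the skin arrays, an overlap with a difference of -0.080 (SE 0.18). Slc16a3 (MCT4), a lactate exporter, was detected only in tumour 1, so no fold is given for it.

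Of the 11 glycolytic enzymes, 3 rose and 0 fell, against 4.81% and 6.13% of all tested genes. Both tumours lay above every skin array for 8 of them, against 26.2% of all tested genes. Pfkl, a subunit of phosphofructokinase, which commits sugar to glycolysis, had 12.68 and 12.00 in the tumours, against 9.82 in WT acetone skin, 10.31 and 10.44 in SKO DMBA skin and 9.77 in SKO acetone skin. It rose by 2.35 (SE 0.27, 5.11-fold, limma adjusted p = 0.0312), and its tumour and skin values were well separated. Its other probe, detected on 3 arrays, differed by 1.21. The partner subunit Pfkp had 10.58 and 10.57 in the tumours, against 9.26 in WT acetone skin, 8.47 and 9.68 in SKO DMBA skin and 8.84 in SKO acetone skin. Its difference of 1.52 (SE 0.40, adjusted p = 0.0752) was not called, and the SKO DMBA pair lay 1.21 apart.

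Pgam1, the phosphoglycerate mutase of most tissues, had 10.06 and 9.41 in the tumours, against 7.21 in WT acetone skin, 7.40 and 7.94 in SKO DMBA skin and 7.25 in SKO acetone skin. It rose by 2.36 (SE 0.31, 5.13-fold, limma adjusted p = 0.0351), and its other detected probe differed by 2.60. Pkm, the pyruvate kinase gene whose splice forms these probes were not shown to separate, had 13.58 and 13.46 in the tumours, against 11.85 in WT acetone skin, 11.62 and 11.53 in SKO DMBA skin and 11.33 in SKO acetone skin. It rose by 1.94 (SE 0.18, 3.83-fold, limma adjusted p = 0.0289), with no overlap between tumours and skin. Its other probe, detected on 2 arrays, differed by 1.39.

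The other tested enzymes were not called. Hk1, a hexokinase, which traps glucose in the cell, differed by 1.26 (SE 0.39, adjusted p = 0.0960), with tumour 1 at 8.53, tumour 2 at 7.45 and the skin arrays at 6.59 to 7.03. Pgk1, which makes ATP from bisphosphoglycerate, differed by 1.16 (SE 0.24, adjusted p = 0.0518) and Ldha, the lactate dehydrogenase subunit, by 0.59 (SE 0.21, adjusted p = 0.126), each with both tumours above every skin array. The other detected probe of Pgk1 differed by 0.026. Tpi1, the triose phosphate isomerase gene, and Gapdh, the next enzyme of the path, had differences of 0.43 (SE 0.23) and 0.22 (SE 0.24). Gapdh had 13.90 and 13.57 in the tumours and 13.29 to 13.72 on the skin arrays, so its groups overlapped. Aldoc, an aldolase known from brain, had 10.18 in tumour 1 and 8.58 in tumour 2, against 8.16 to 8.98 on the skin arrays, and its difference of 0.74 (SE 0.51) turned to -0.064 without tumour 1.

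**Figure D2:**
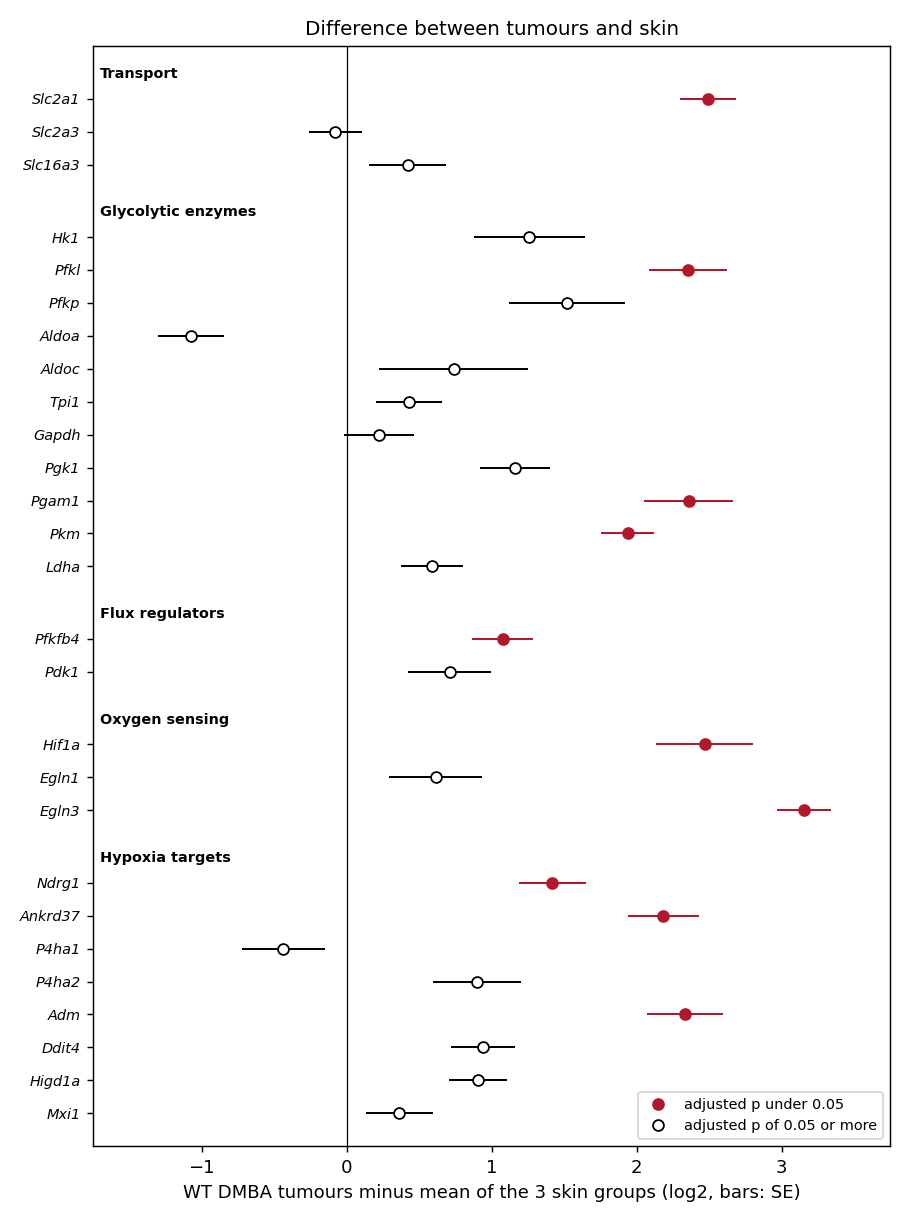
WT DMBA tumours minus the mean of the 3 skin groups for each tested gene (x axis, log2), with bars giving limma's SE and filled red points marking adjusted p under 0.05. The called differences run from 1.08 for Pfkfb4 to 3.15 for Egln3, and Aldoa has the lowest value, -1.08, which was not called.

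Aldoa, the aldolase of muscle and most other tissues, was the 1 enzyme with a negative difference. It had 12.83 and 12.70 in the tumours, against 13.53 in WT acetone skin, 13.90 and 13.43 in SKO DMBA skin and 14.32 in SKO acetone skin. Both tumours lay below every skin array, with a difference of -1.08 (SE 0.23, limma adjusted p = 0.0534), and the value passed the threshold under 8 of 17 other settings.

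Skeletal muscle markers were also lower in both tumours, but the tumours differed widely in them and hardly in Aldoa. Their summed background-corrected level over 27 tested genes was 784 and 64431 in the tumours, against 318673 in WT acetone skin, 317150 and 219601 in SKO DMBA skin and 402332 in SKO acetone skin. Of the 27 markers, 6 were detected in tumour 1 and 24 in tumour 2, and Acta1, the actin of muscle fibres, was not detected in tumour 1. The part of muscle in the Aldoa difference was not tested.

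Genes of sugar and phosphate metabolism known from muscle were lower in the tumours. Of 14 such genes, 11 were tested, 0 were higher and 4 fell, against 4.81% and 6.13% of all tested genes, with a median of -2.91. Both tumours lay below every skin array for 9, against 27.2% of all tested genes. Slc2a4 (GLUT4), the insulin-responsive carrier of muscle and fat, was not detected in either tumour and fell at least 2.58-fold (adjusted p = 0.0370). Phka1, a subunit of the kinase that activates glycogen breakdown, was not detected in either tumour and fell at least 3.10-fold (adjusted p = 0.0337). These bounds set the mean of the skin groups against the lowest detected signal of each tumour array, whereas the calls took the tumours at signals not above background. Slc2a4 and Phka1 thus entered the tests only through the skin arrays. They are among the 4 that fell and the 9 below every skin array, and they count in the median. Pygm, the muscle glycogen phosphorylase, fell, with a difference of -3.70 (SE 0.67, limma adjusted p = 0.0451). Phkg1, another subunit of phosphorylase kinase, fell too, at -2.91 (SE 0.43, adjusted p = 0.0374), and both were detected in tumour 2 but not in tumour 1. Their differences take tumour 1 at a signal not above background and so are not exact sizes.

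Pfkm, the muscle relative of Pfkl, had 8.40 and 10.84 in the tumours, against 12.81 in WT acetone skin, 12.88 and 12.13 in SKO DMBA skin and 13.13 in SKO acetone skin, a difference of -3.19 (SE 0.78, adjusted p = 0.0667). Pgam2, the muscle relative of Pgam1, was not detected in tumour 1 and had 9.96 in tumour 2, against 10.91 to 12.22 on the skin arrays. Eno3, the muscle enolase, was not detected in tumour 1 and had 10.46 in tumour 2, against 12.22 to 13.49. Tumour 2 thus lay between tumour 1 and the skin arrays for all 3, and none of them was called. The creatine kinase gene Ckm was likewise not detected in tumour 1, with 10.00 in tumour 2 and 12.55 to 14.18 on the skin arrays. The remaining tested genes, Ak1 (-1.36, SE 0.37), Pdk4 (-2.68, SE 1.22) and Fbp2 (-0.95, SE 0.55), were not called. For Pdk4 and Fbp2, tumour 1 minus tumour 2 was -3.77 and 1.58. Pdk4 was not detected in tumour 1, so its difference is not an exact size. Ldhb and Slc16a1 were not detected on any array.

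**Figure D3:**
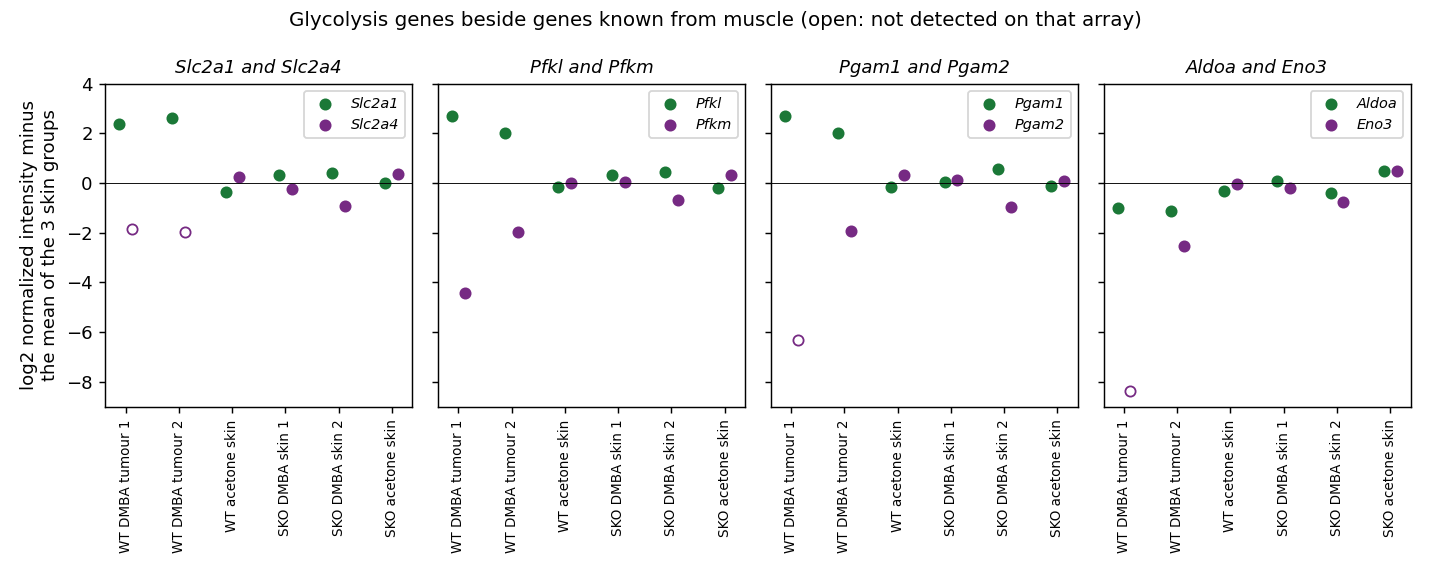
Log2 normalized intensity minus the mean of the 3 skin groups (y axis) on each array (x axis) for 4 pairs of a listed gene (green) and a gene known from muscle (purple), with open circles where a probe was not detected. Slc2a1, Pfkl and Pgam1 lie above every skin array in both tumours while Slc2a4, Pfkm and Pgam2 lie below. Aldoa, an aldolase, and Eno3, an enolase, each lie below, with the tumours close for Aldoa and far apart for Eno3.

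Of the regulators of flux, Pfkfb4, which makes and removes the activator of phosphofructokinase, had 10.20 and 10.41 in the tumours, against 9.19 in WT acetone skin, 9.50 and 9.17 in SKO DMBA skin and 9.17 in SKO acetone skin. It rose by 1.08 (SE 0.21, limma adjusted p = 0.0495), at the threshold, and was called in 10 of 18 settings, the main one included. The call was lost without normalization between arrays, with equal medians, without a detection filter, with undetected signals raised or without any 1 skin array. Pdk1, a kinase that inhibits pyruvate dehydrogenase, had 9.32 and 8.72 in the tumours and 8.03 to 8.64 on the skin arrays, a difference of 0.71 (SE 0.29) that was not called.

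Among the other hypoxia targets, Adm, which encodes the vessel-widening peptide adrenomedullin, had 8.71 and 8.28 in the tumours, against 6.16 in WT acetone skin, 6.76 and 6.26 in SKO DMBA skin and 5.82 in SKO acetone skin. It rose by 2.33 (SE 0.26, 5.03-fold, limma adjusted p = 0.0308). Ankrd37, an ankyrin repeat gene known as a HIF-1 target, had 9.84 and 9.29 in the tumours, against 7.06 in WT acetone skin, 8.02 and 8.11 in SKO DMBA skin and 7.02 in SKO acetone skin. It rose by 2.18 (SE 0.24, 4.54-fold, limma adjusted p = 0.0308), with SKO DMBA skin between the tumours and the acetone skins as for Egln3.

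Ndrg1, a stress- and differentiation-linked gene, had 12.26 and 11.75 in the tumours, against 10.45 in WT acetone skin, 10.59 on each SKO DMBA array and 10.73 in SKO acetone skin. It rose by 1.42 (SE 0.23, 2.67-fold, limma adjusted p = 0.0408), and its other probe differed by 1.56. Higd1a, a mitochondrial gene, differed by 0.90 (SE 0.20, adjusted p = 0.0574) and Ddit4, an inhibitor of mTORC1, by 0.94 (SE 0.22, adjusted p = 0.0623), each with both tumours above every skin array. Mxi1, a MYC antagonist, was at 0.36 (SE 0.23) with overlapping groups.

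The collagen prolyl hydroxylase subunits were not called. P4ha2 had 10.07 and 9.26 in the tumours and 8.38 to 8.94 on the skin arrays, a difference of 0.90 (SE 0.31). P4ha1 was not detected in tumour 1 and had 6.19 in tumour 2, against 6.18 to 6.61, a difference of -0.44 (SE 0.29), while its other detected probe differed by 0.60. Of the 15 tested genes with several detected probes, P4ha1 was the only one whose probes disagreed in sign.

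A wider list of 31 other tested hypoxia targets gave 5 higher and 0 lower, against 4.81% and 6.13% of all tested genes. Their median difference was 0.39. Fam162a, a mitochondrial gene, had 13.78 and 13.92 in the tumours, against 10.83 in WT acetone skin, 11.00 and 11.80 in SKO DMBA skin and 10.70 in SKO acetone skin, and rose by 2.88 (SE 0.30, limma adjusted p = 0.0298). The carbonic anhydrases Car9 and Car12, which handle acid at the cell surface, rose by 2.63 (SE 0.49, limma adjusted p = 0.0467) and 2.54 (SE 0.19, adjusted p = 0.0274). Car9 had 4.85 in SKO acetone skin, under the 4.94 of the undetected Sting1 probe there, so its difference is not an exact size. The other called genes were the vascular growth factor Vegfa and the adenylate kinase Ak4, named after their values were seen, at 1.88 (SE 0.21) and 1.08 (SE 0.18). At the low end, Ppp1r3c, a glycogen-targeting phosphatase subunit, was at -4.06 (SE 1.16), the collagen cross-linker Lox at -1.87 (SE 1.09) and the endothelin gene Edn1 at -1.08 (SE 0.71), none called. Tumour 1 minus tumour 2 was -3.78, -3.64 and -2.31 for them, so each difference averages tumours far apart.

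In a list of 8 tested further glycolysis genes, 1 rose and 1 fell, against 4.81% and 6.13% of all tested genes, with a median of -0.69. Gapdhs, known from sperm, was detected in both tumours (6.44 and 6.78) and on no skin array, so it entered the tests only through the tumours. It was at least 2.74-fold higher in the tumours (limma adjusted p = 0.0349), a call that took the skin arrays at signals not above background. Eno2, the neuronal enolase, was detected on all 4 skin arrays at 6.10 to 6.88 and in neither tumour, where it was at least 1.67-fold lower (adjusted p = 0.0438). Eno2 thus entered the tests only through the skin arrays, and its call took the tumours at signals not above background. Among 5 tested genes of the pentose phosphate pathway (Pgls, Rpia, Rpe, Tkt and Taldo1), 0 were called and the median was 0.25. Tkt, the transketolase gene, was highest at 0.75 (SE 0.25), and Pgd, also listed, was not tested.

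Markers of other cell types moved beside these differences. The summed level of 11 keratinocyte markers was 254337 and 246284 in the tumours, against 157527 in WT acetone skin, 159758 and 170340 in SKO DMBA skin and 131220 in SKO acetone skin. Of them, 7 had both tumours above every skin array and 1, Krt14, below, against 26.2% and 27.2% of all tested genes. Krt6b and Krt16 carried much of the rise in the sum, with means of 15.40 and 15.46 in the tumours, against 10.82 and 11.61 in WT acetone skin. Krt14 had means of 15.12 and 15.41 there. Over 9 macrophage and neutrophil markers the summed level was 67343 and 75230 in the tumours, against 10024 in WT acetone skin, 19359 and 16779 in SKO DMBA skin and 9519 in SKO acetone skin. All 9 were detected in both tumours, and at least 8 on each skin array. The markers did not move one way: 4 had both tumours above every skin array and 3 below, against 26.2% and 27.2% of all tested genes. S100a8 and S100a9, which neutrophils and also stressed keratinocytes are known to make, carried the sum, at 15.20 and 15.44 in the tumours for S100a8, against 9.09 to 12.16 on the skin arrays. The macrophage genes Adgre1, Csf1r and Lyz2, named after their values were seen, were the 3 below, with differences of -1.96 (SE 0.71), -1.86 (SE 0.43) and -2.17 (SE 0.92) that were not called by limma. The 4 tested proliferation markers summed to 3544 and 2489 in the tumours and 957 to 1321 on the skin arrays. Of the 4, 3 had both tumours above every skin array, against 26.2% of all tested genes. Over 8 adipocyte markers the sum was 246 and 6762 in the tumours and 21251 to 77092 on the skin arrays, and Adipoq was not detected in tumour 1. The 9 tested hair follicle markers summed to 115 and 24566 in the tumours, against 78677 in WT acetone skin, 83009 and 115051 in SKO DMBA skin and 2600 in SKO acetone skin. Of them, 1 was detected in tumour 1, 8 in tumour 2, 6 in SKO acetone skin and 9 on each other array. The part of these cell types in the differences was not tested.

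Set against WT acetone skin alone, both tumours were higher for 25 of the 27 genes and lower for 2, against 39.4% and 40.8% of all tested genes. Of the 27 genes 0 were called by limma after adjustment, as were 0 of all tested genes (0% higher, 0% lower), and the lowest adjusted p among all genes was 0.0935. At an unadjusted p under 0.05, 14 were higher and 0 lower, against 8.68% and 12.5% of all tested genes. The median difference was 1.22, with Egln3 at 3.67 (SE 0.26), Slc2a1 at 2.87 (SE 0.27), Pgam1 at 2.53 (SE 0.43) and Pfkl at 2.52 (SE 0.37). Without tumour 1, 7 of the 27 were called higher, against 2.09% of all genes in that fit, and without tumour 2 it was 13, against 9.2%. This comparison and the comparison with all skin share the tumour arrays and WT acetone skin.

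DMBA-treated SKO skin was set against SKO acetone skin to ask whether the same genes differ after DMBA in tissue that is not tumour. The median difference was 0.031, and 14 of 27 were positive, against 50% of all genes. By limma 0 were called after adjustment (0% of all genes in either direction), and at an unadjusted p under 0.05, 3 were higher, against 3.98% of all genes, and 0 lower, against 3.77%. The 3 were hypoxia genes: Egln3 with 2.33 (SE 0.26, adjusted p = 0.330), Ankrd37 with 1.05 (SE 0.34, adjusted p = 0.600) and Ddit4 with 1.02 (SE 0.31, adjusted p = 0.581). Egln3 was called when either tumour array was left out, which leaves the SKO DMBA pair as the source of the spread, and 1.32% of all genes were then called higher. Both SKO DMBA arrays lay above SKO acetone skin for 10 genes and below it for 8, against 38.6% and 38.4% of all genes. Both SKO DMBA arrays lay above both acetone arrays for 8 of 27 genes, against 21.5% of all genes. The 8 were Slc2a1, Pfkl, Pgam1, Egln3, Ankrd37, P4ha1, Adm and Ddit4. Hair follicle markers were higher in SKO DMBA skin than in SKO acetone skin for 9 of 9, with a median of 5.31, though 0 were called, and their part in these differences was not tested. The glycolytic enzymes had a median of 0.031, with Pfkl highest at 0.60 (SE 0.37) and Aldoa lowest at -0.65 (SE 0.32).

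Tumours were also set directly against SKO DMBA skin, the other tissue that had received DMBA. The median difference over the 27 genes was 0.98, and 0 were called by limma after adjustment (0% of all genes). At an unadjusted p under 0.05, 15 were higher and 1, Aldoa, was lower, against 12.4% and 17% of all genes. Both tumours lay above both SKO DMBA arrays for 22 genes and below them for 3, against 31.6% and 35.8%. Hif1a differed most, by 2.77 (SE 0.38, adjusted p = 0.0732), followed by Slc2a1 with 2.13 (SE 0.22, adjusted p = 0.0711) and Pgam1 with 2.06 (SE 0.35, adjusted p = 0.0806). Egln3 differed by 1.74 (SE 0.21, adjusted p = 0.0724). The count of calls was 7 without tumour 1 and 14 without tumour 2, against 3.16% and 13% of all genes called higher in those fits. Over genes detected on all 6 arrays it was 4 of 25, against 1.12%.

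The difference between the responses, tumour minus WT acetone skin and SKO DMBA skin minus SKO acetone skin, was tested as an interaction term. Its median was 1.09 and 24 of 27 values were positive, against 48.8% of all genes. After adjustment limma called 0 (0% of all genes, lowest adjusted p 0.321), and at an unadjusted p under 0.05, 11 were positive, against 3.47% of all genes, and 0 negative, against 4.52%. Slc2a1 and Hif1a had the largest values, 2.52 (SE 0.38, adjusted p = 0.422) and 2.52 (SE 0.66, adjusted p = 0.538). For the same term the 9 hair follicle markers had a median of -10.16, with 0 called, and their part was not tested. The negative values among the 27 genes were those of Aldoa at -0.11, Ddit4 at -0.15 and P4ha1 at -0.64. Without tumour 2, 5 were called, against 3.13% of all genes called positive in that fit.

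**Figure D4:**
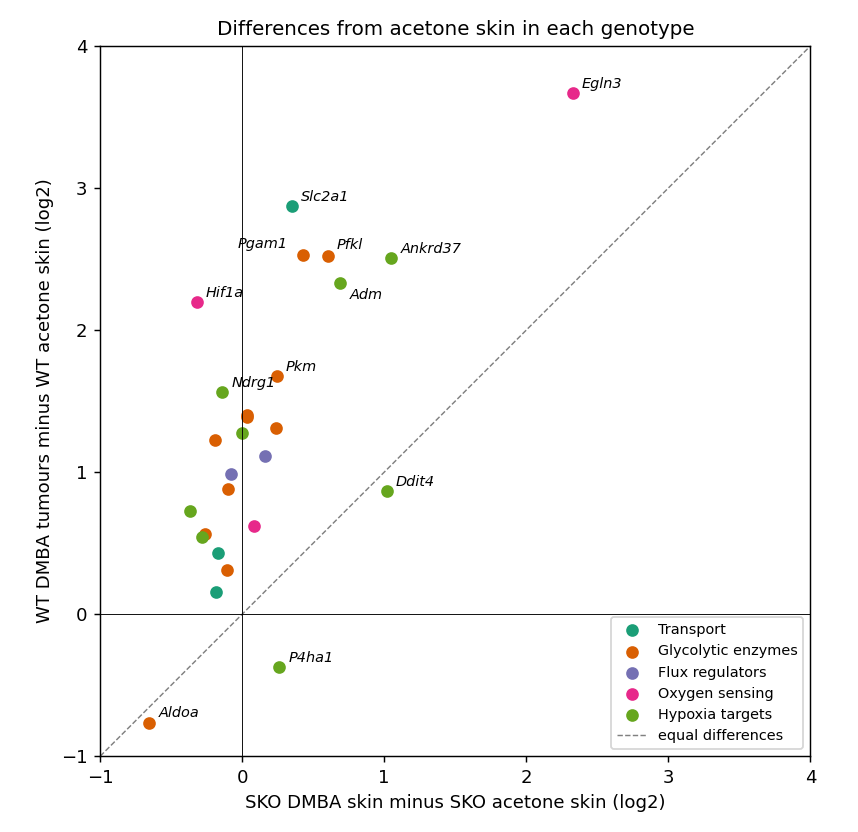
WT DMBA tumours minus WT acetone skin (y axis) against SKO DMBA skin minus SKO acetone skin (x axis), both log2, with 1 point per tested gene coloured by role and a dashed line where the differences are equal. Most points lie near 0 on the x axis and above 0 on the y axis; Egln3 is far out on both, and Ddit4 lies near the line.

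The acetone arrays of the genotypes, 1 each, were compared without a test. SKO minus WT differences over the 27 genes ran from -0.62 for Ddit4 to 0.82 for Aldoc, and 0 were over 2-fold apart in either direction, against 2.31% of all genes over 2-fold higher and 3.49% over 2-fold lower in SKO acetone skin. The pair of tumours lay over 2-fold apart for 2 of the 27 genes, Hk1 and Aldoc, against 15.3% of all genes, and the pair of SKO DMBA arrays for 1, Pfkp, against 3.27%. The median absolute difference within the tumour pair was 0.428 over the list and 0.351 over all tested genes. Within the SKO DMBA pair it was 0.281 and 0.235.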

How the data were processed

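Transcript levels were measured on 6 arrays of 4 groups. The deposited non-normalized table gives, per the file headers, a linear intensity for 45281 probes and, beside it, a detection p-value column. The deposited p-values were larger for brighter probes (lowest Spearman correlation 0.975), so 1 minus the value was used. The authors' deposited matrix of log2 values was compared with the intensities: it equals quantile-normalized log2 intensity minus each probe's median, the mean absolute difference being 0.000136 or less. Its scale, centring and direction were found this way, and it served as an alternative. Its column medians were 0.0122 and 6.82e-05 (tumours), -0.00263 (WT acetone), -0.00172 and -0.00292 (SKO DMBA) and -0.000698 (SKO acetone).

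Intensities were background-corrected, quantile-normalized and logged by limma's neqc with an offset of 16 (limma version 3.58.1 under R version 4.3.3). Of the probes, 34885 had 1 gene in the platform annotation, 18 several and 10378 none. Symbols were updated with RefSeq (GRCm38.p6), which matched 34807. The probe of highest mean log2 value stood for its gene. Tests covered 11998 of 19057 genes, those detected (p under 0.01) on 1 array or more. The 4 group means were fitted with lmFit and eBayes (2 residual and 2.44 prior degrees of freedom). For the acetone groups of 1 array, the spread of the pairs was assumed. The fit was tested on simulated data. Replicate numbers follow accession order, so they pair nothing. Precision is limited by the number of arrays.

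Genes described are all members of the list, the muscle isoforms, and from each other list up to 3 with the highest and 3 with the lowest tumour difference. Members, lists and comparisons were chosen with earlier results of these data known. No slide or scan batch is given in the labels or headers.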

Additional observations from a re-analysis of the deposited data

How the results depend on the processing

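Over 17 alternative settings, which include undetected signals raised to 1 limit and each acetone array left out (both chosen after seeing the data), the median tumour difference from all skin stayed between 0.736 and 1.30. The 10 genes called higher numbered 3 without a detection filter, against 0.593% of all genes. They numbered 0 with undetected signals raised (limma adjusted p = 0.0553 to 0.0700), against 0% of all genes. Without SKO acetone skin they numbered 0, against 0.0667%. Leaving out single DMBA arrays gave 0 to 17 higher and 0 to 1 lower. The ranges for calls higher were 0 to 13 for tumours minus WT acetone skin, 0 to 14 for tumours minus SKO DMBA skin, 0 to 1 for SKO DMBA skin minus SKO acetone skin and 0 to 5 for the interaction. For these 4 comparisons the low end, 0, was also the count in the main fit. Apart from SKO skin, each had its high end without tumour 2. The causes were not tested, except that leaving out an array of a pair leaves the spread to the other pair. Over genes detected on all 6 arrays, 4 were called higher against SKO DMBA skin. Aldoa, with 0 lower calls otherwise, made 1 lower call without background correction, with the deposited matrix, over genes detected on all 6 arrays, with an offset of 50, with the mean of detected probes, with a mean-variance trend, with the skin arrays as 1 group and without tumour 2. Among single genes, P4ha1 turned to 0.0787 with the mean of detected probes, Aldoc to -0.0644 without tumour 1 (1.54 without tumour 2) and Slc2a3 to 0.0257 without SKO acetone skin. Without normalization between arrays the median of all genes was -0.331 and with equal medians -0.233; 27.2% and 28.8% of all calls were then higher, and 9 of the 10 calls were kept in each. No paired analysis was possible because replicate numbers were given in accession order. Detection limits P4ha1 and most muscle genes in tumour 1.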
